A study of Mus musculus with 13 samples.

Results

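The mitochondrial ribosomal proteins were taken here as the genes whose array symbol was Mrpl or Mrps followed by a number, with the probe of the highest mean signal standing for each gene. By this rule 71 of the 8336 genes measured were members, 44 with an Mrpl and 27 with an Mrps symbol. The RefSeq table of the mouse held 78 such protein-coding genes, and Mrpl19, Mrpl21, Mrpl32, Mrpl41, Mrpl44, Mrps14 and Mrps36 were not analysed here. By place in the ribosome 46 members belonged to the large and 25 to the small subunit, Mrps18a and Mrps30 being proteins of the large subunit in spite of their symbols. Of the 71 members, 70 were detected on all 13 arrays and Mrpl45 on 12.

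Total RNA came from hearts of male C57BL/6 mice, 8 to 10 weeks old, each heart on an array of its own. Pressure overload was produced by transverse aortic constriction (TAC), a partial ligation of the aortic arch, and sham-operated mice went through the surgery without the constriction. Mice received tauroursodeoxycholic acid (TUDCA), a bile acid used as a chemical chaperone against endoplasmic reticulum stress, or its vehicle for 1 week after surgery. The groups were Veh-Sham (vehicle and sham surgery, 3 hearts), Veh-TAC (vehicle and TAC, 3 hearts), TUDCA-Sham (3 hearts) and TUDCA-TAC (4 hearts). Hearts are named below by group and biological replicate number, which differs from the number in the sample titles: replicates 1, 2 and 3 are titled 3, 4 and 6 in the Veh-Sham group, 3, 8 and 9 in the Veh-TAC group and 1, 4 and 6 in the TUDCA-Sham group, and TUDCA-TAC replicates 1, 2, 3 and 4 are titled 2, 3, 4 and 1.

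Mitochondrial ribosomes translate the few mRNAs made from mitochondrial DNA, all of which encode membrane subunits of the respiratory chain and ATP synthase. Their RNA comes from mitochondrial DNA, whereas every one of their proteins is encoded in the nucleus, made in the cytosol and imported. Cardiac muscle is dense in mitochondria, and inherited defects of several of these proteins cause cardiomyopathy in humans. Transcription of the genes of this family is known to depend in part on nuclear respiratory factor 1 (NRF1), on the ETS family factor GABP and on YY1.

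Because the members are scattered over the genome and share a function, the sequence upstream of their starts was examined first. RefSeq promoter windows of GRCm38.p6, reaching from 250 bases before to 50 bases after the start, were found for 63 of the 71 members. The stretches that follow are those of members on which the results turned: Mrps31, Mrpl30, Mrpl23 and Mrps27, called lower in Veh-TAC than in Veh-Sham hearts and higher in TUDCA-TAC than in Veh-TAC hearts, Mrps15 and Mrpl39, which were lower after TAC in the TUDCA-treated mice, and Mrpl33, the member that rose. Mrpl4, Mrpl38 and Mrps35 were called like Mrps31 in both of these comparisons, but no window was found for them. Each stretch runs 5′ to 3′ on the strand of the gene and ends at the base before the start, and the stretches of Mrpl30 and Mrps27 begin where a neighbouring gene starts in the opposite direction. Capitals mark the letters of the motifs searched, which in these stretches were CCAAT, the ETS letters CCGGAAG and their shorter core CCGGAA, on either strand. The positions were chr8:22411220-22411339 (plus strand) for Mrps31, chr1:37890412-37890476 (plus) for Mrpl30, chr7:142532912-142533031 (plus) for Mrpl23, chr13:99344679-99344785 (plus) for Mrps27, chr4:126046808-126046927 (plus) for Mrps15, chr16:84735245-84735364 (minus) for Mrpl39 and chr5:31613831-31613950 (plus) for Mrpl33.
Mrps31: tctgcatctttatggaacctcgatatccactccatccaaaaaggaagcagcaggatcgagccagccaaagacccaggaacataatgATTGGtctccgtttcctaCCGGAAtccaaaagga
Mrpl30: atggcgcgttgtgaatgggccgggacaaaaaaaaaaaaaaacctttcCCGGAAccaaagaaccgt
Mrpl23: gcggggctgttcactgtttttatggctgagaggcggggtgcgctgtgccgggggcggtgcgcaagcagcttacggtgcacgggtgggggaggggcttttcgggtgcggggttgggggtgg
Mrps27: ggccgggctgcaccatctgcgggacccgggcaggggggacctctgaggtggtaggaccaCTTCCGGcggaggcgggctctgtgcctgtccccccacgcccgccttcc
Mrps15: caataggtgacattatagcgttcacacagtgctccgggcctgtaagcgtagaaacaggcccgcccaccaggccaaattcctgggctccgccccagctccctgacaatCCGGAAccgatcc
Mrpl39: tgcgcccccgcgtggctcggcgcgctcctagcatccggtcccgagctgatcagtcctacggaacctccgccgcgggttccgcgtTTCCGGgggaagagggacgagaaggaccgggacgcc
Mrpl33: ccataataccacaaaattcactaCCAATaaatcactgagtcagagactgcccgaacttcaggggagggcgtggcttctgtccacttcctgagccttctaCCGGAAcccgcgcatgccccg
The core CCGGAA lay 13 bases before the start in Mrps15, 16 in Mrps31, 18 in Mrpl30, 21 in Mrpl33, 36 in Mrpl39 and 47 in Mrps27, counted from the start to the first base of the match, and Mrpl23 held none. It was thus present upstream of members that fell and of the member that rose. Mrpl30 also held 2 matches to the NRF1 letters GCGCANGCG, which lie past the start of its neighbour Mitd1 and are shown with their surroundings, with capitals marking both matches. They began 102 and 82 bases before the Mrpl30 start, at chr1:37890374-37890403 (plus).
Mrpl30, NRF1 letters: aGCGCACGCGtgacgccgctgCGCCTGCGC
Across the 63 windows the NRF1 letters were found in 14 (22.2%), against 8.83% of the windows of 17492 protein-coding genes and 14.4% of those of the genes measured here. The ETS letters CCGGAAG were found in 24 windows (38.1%), against 11.9% and 18.5%. The core CCGGAA, which every CCGGAAG match contains and which was added after these sequences had been seen, was found in 35 (55.6%), against 19.1% and 28.8%. The YY1 letters AAGATGGCG were found in 8 (12.7%), against 1.94% and 3.29%. Windows of the genes shown above reach beyond the printed stretches and held further matches there. Among these were 2 of the NRF1 letters in Mrpl39, 1 of the YY1 letters in Mrps27 and 1 of CCGGAAG in Mrpl33. CACGTG, bound by basic helix-loop-helix factors, was found in 7.94% against 7.9% of protein-coding windows, CCAAT in 38.1% against 39.0%, and TCAAGGTCA, the letters of estrogen-related receptors, in 0 member windows against 0.332%. The family was therefore richer than other genes in the letters of NRF1, ETS factors and YY1 and not in those of CACGTG or CCAAT, both strands being searched each time. A match describes letters and was not tested as a binding site.

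**Figure D1:**
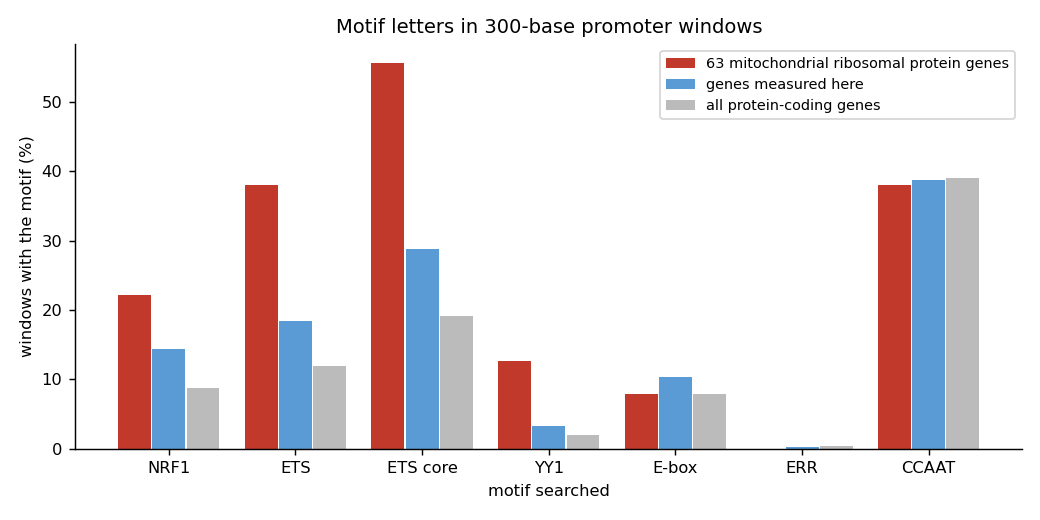
Share of promoter windows (y axis, percent) that hold the letters of each motif (x axis) on either strand, for the 63 mitochondrial ribosomal protein genes with a window, for the genes measured here and for all protein-coding genes. The bars of the family stand highest for NRF1 (22.2%), ETS (38.1%), the ETS core (55.6%) and YY1 (12.7%), whereas those for CACGTG (E-box) and CCAAT are level with all protein-coding genes.

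The letters were also counted by response to TAC, with no test of the difference between the shares. Among the 16 members with a window that were called lower in Veh-TAC hearts, 31.2% held the NRF1 letters, 31.2% the ETS letters, 68.8% their core and 12.5% the YY1 letters. Among the other 47 members the shares were 19.1%, 40.4%, 51.1% and 12.8%.

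Many of the genes start back to back with another gene. A protein-coding gene started in the opposite direction within 500 bases upstream of 19 of the 63 members (30.2%), against 7.09% of all protein-coding genes with a window. The share among the genes measured here was not counted. In 1 case both were members: the starts of Mrps11 and Mrpl46 lay 42 bases apart, with the following bases between them on the plus strand at chr7:78783090-78783130, which hold none of the motifs searched and so no capitals.
Mrps11 and Mrpl46, between the starts: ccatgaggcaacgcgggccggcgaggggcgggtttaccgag
Mrps11 (small subunit) and Mrpl46 (large subunit) differed between Veh-TAC and Veh-Sham hearts by -0.23 and -0.27 on the log2 scale, neither past the threshold (adjusted p = 0.247 and 0.127, limma). Other partners with mitochondrial functions were Twnk, the mitochondrial DNA helicase, beside Mrpl43, Sars2, the mitochondrial seryl-tRNA synthetase, beside Mrps12, and Ndufb5, a subunit of respiratory complex I, beside Mrpl47. Of the 14 members whose partner was measured, 2 had a partner called lower in Veh-TAC hearts, where 12.5% of all genes were called lower, and in neither pair was the member called: Twnk fell by 0.93 (adjusted p = 0.00993) while Mrpl43 differed by 0.06, and Cyb5rl fell by 1.13 (adjusted p = 0.00641) while Mrpl37 differed by -0.30 (adjusted p = 0.0701). No partner was called higher. The calls of the members in these pairs are those of the brightest probe. A dimmer probe of Mrpl37 was called lower (-0.44, adjusted p = 0.0343, limma, all named probes adjusted together). A dimmer probe of Mrpl43 differed by -0.28 and was not called.

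The comparison of Veh-TAC with Veh-Sham hearts asked what 1 week of pressure overload did to these mRNAs without TUDCA. Most of the family was lower: the fitted difference was negative for 61 of the 71 members (85.9%), against 53.4% of all genes. At an adjusted p under 0.05 (limma, Benjamini-Hochberg over 8336 genes), 21 members fell (29.6%), against 12.5% of all genes called lower, and 1 member, Mrpl33, rose, against 12.5% of all genes called higher. The median difference over the members was -0.27 on the log2 scale, with a range from -0.73 to 0.39, beside a median of -0.03 over all genes. In 40 members (56.3%) every Veh-TAC heart lay below every Veh-Sham heart, against 23.7% of all genes. In bulk tissue, fewer cells of a type and less RNA per cell cannot be told apart.

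Falls were found in both subunits. In the large subunit 15 of 46 members fell, with a median difference of -0.28, and in the small subunit 6 of 25 fell, with a median of -0.27, beside 12.5% of all genes called lower. The difference between the subunits was not tested. By evolutionary origin, a division drawn up after the values had been seen and given as counts only, of the 40 members with a counterpart in bacterial ribosomes 13 fell (32.5%) and 1 rose, and of the 31 members that were added to the ribosome in mitochondria 8 fell (25.8%) and none rose. The medians of these classes were -0.24 and -0.28.

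**Figure D2:**
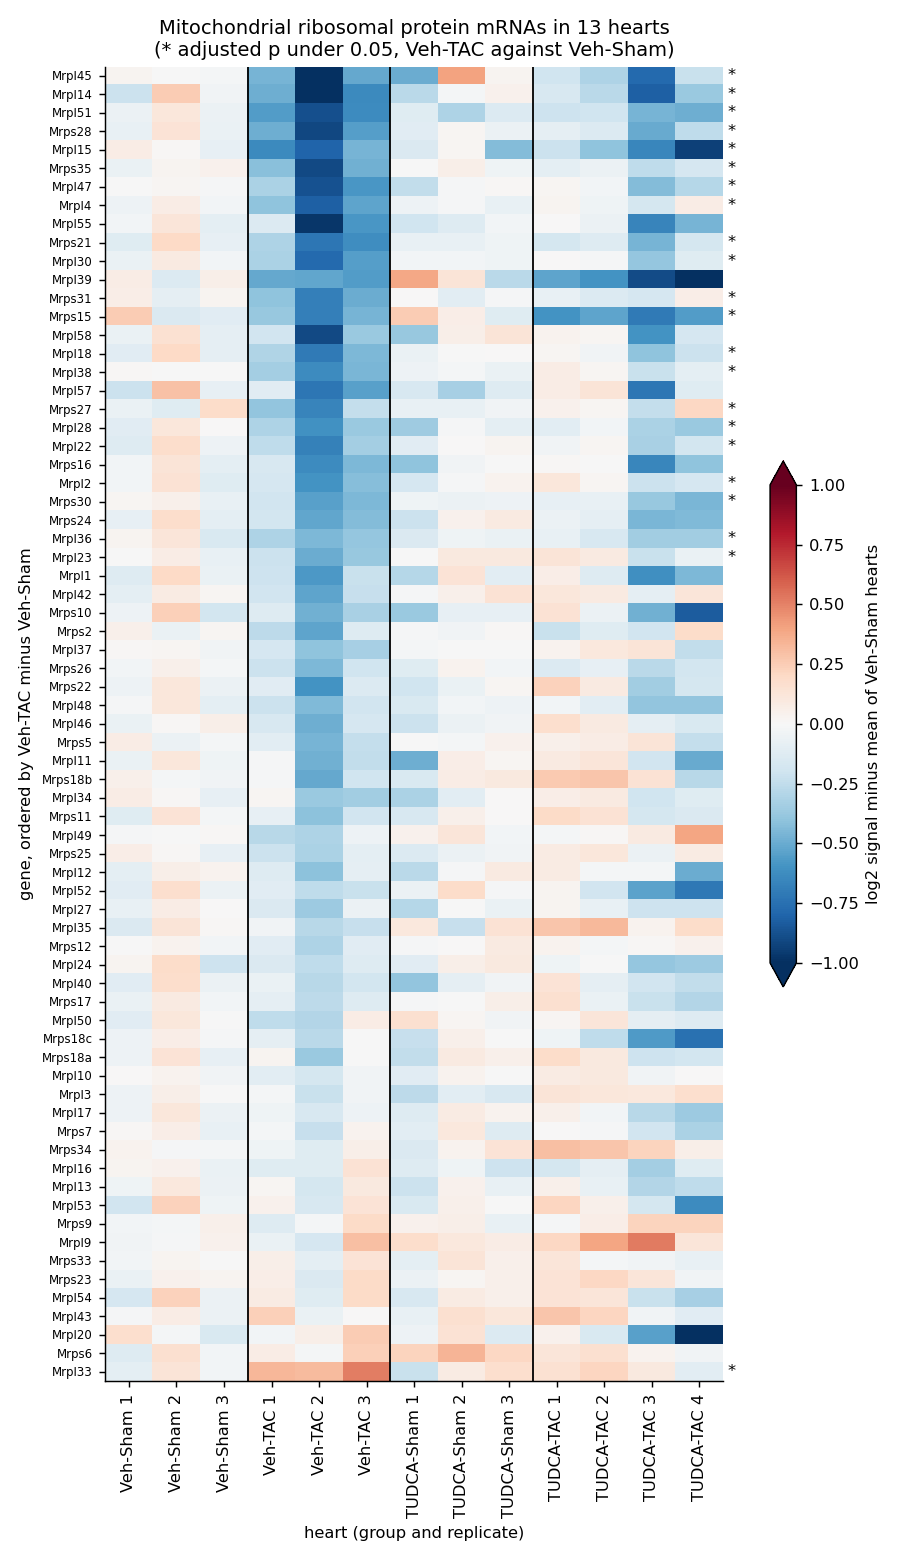
Signal of each of the 71 members (rows, ordered by the difference between Veh-TAC and Veh-Sham) in each of the 13 hearts (columns), as log2 signal minus the mean of the Veh-Sham hearts, with the colour scale ending at 1 in either direction and an asterisk for an adjusted p under 0.05 between Veh-TAC and Veh-Sham. The upper rows are blue in all 3 Veh-TAC hearts and most deeply in replicate 2, and in the TUDCA-TAC group they are bluer in replicates 3 and 4 than in 1 and 2.

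The smallest adjusted p belonged to Mrpl51, a large subunit protein found only in mitochondrial ribosomes. Its log2 signal was 9.92, 10.09 and 9.92 in the Veh-Sham hearts and 9.42, 9.10 and 9.35 in the Veh-TAC hearts. The groups did not overlap, and the difference was -0.69 (SE 0.12, adjusted p = 0.00211). Mrps31, a mitochondria-specific protein of the small subunit, read 13.04, 12.89 and 13.002 against 12.57, 12.29 and 12.48, a difference of -0.53 (SE 0.11, adjusted p = 0.00367). It was the member measured by 3 probes of which each was called on its own, with differences of -0.53, -0.57 and -0.62. Mrpl4, a conserved protein that lines the tunnel through which the new chain leaves the ribosome, read 10.84, 10.96 and 10.86 against 10.48, 10.07 and 10.36, a difference of -0.58 (SE 0.12, adjusted p = 0.00367). In each of these genes the lowest value of all 6 vehicle hearts was that of Veh-TAC replicate 2.

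Mrps35, a further small subunit protein particular to mitochondria, read 12.29, 12.38 and 12.40 in Veh-Sham hearts and 11.93, 11.45 and 11.88 in Veh-TAC hearts, a fall of 0.60 (adjusted p = 0.0045). Mrps28 of the small subunit read 12.72, 12.92 and 12.73 against 12.30, 11.88 and 12.24, a fall of 0.65 (adjusted p = 0.00562). The Veh-TAC hearts were again below all Veh-Sham hearts, with replicate 2 the lowest. Mrpl38 of the large subunit had the tightest controls, 12.92, 12.90 and 12.90, against 12.57, 12.28 and 12.45 after TAC, a fall of 0.48 (adjusted p = 0.00669). Among the further members that fell, Mrpl14, a conserved large subunit protein, read 13.33, 13.80 and 13.51 against 13.06, 12.54 and 12.91 (by 0.71, adjusted p = 0.0174). Mrpl30, a conserved large subunit protein whose upstream sequence is shown above, read 13.59, 13.75 and 13.63 against 13.34, 12.87 and 13.10 (by 0.55, adjusted p = 0.0111). Neither gene overlapped between the groups. The 15 members that fell beside the 6 named first did so by 0.36 to 0.73, with adjusted p between 0.0111 and 0.0492, and included Mrps21 and Mrps30 as well. On the linear scale, the 6 members named first stood at 0.621 (Mrpl51) to 0.718 (Mrpl38) of the Veh-Sham level.

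Mrpl33, a small conserved protein of the large subunit, went the other way. Its signal was 14.11, 14.34 and 14.18 in Veh-Sham hearts and 14.55, 14.52 and 14.72 in Veh-TAC hearts, which did not overlap, and it rose by 0.39 (SE 0.13, adjusted p = 0.0458). The gene had a second probe with a difference of 0.33, and when all named probes were adjusted together neither passed the threshold (adjusted p = 0.0505 and 0.0614). No other member had an unadjusted p under 0.05 in that direction, and the next was Mrps6, with 0.10 (unadjusted p = 0.389).

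**Figure D3:**
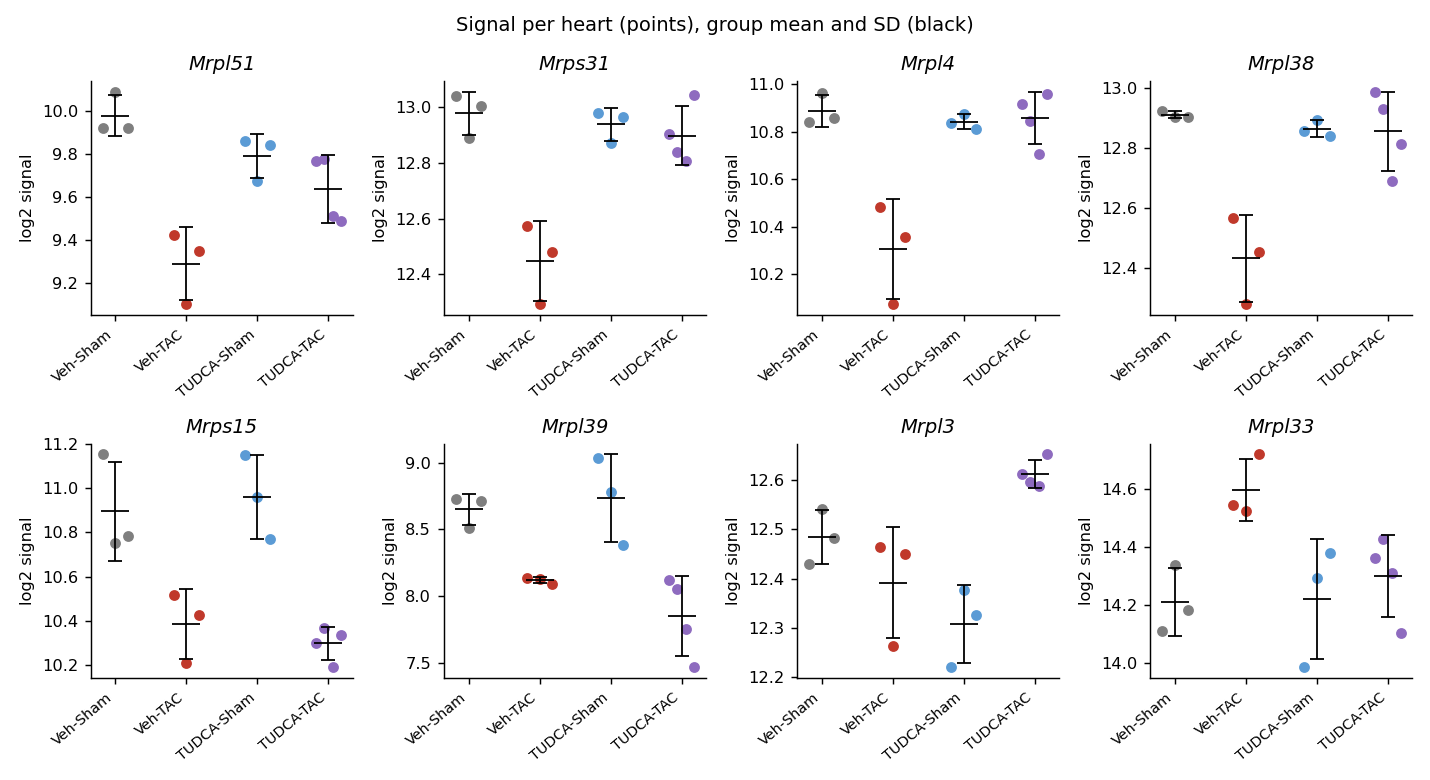
Log2 signal (y axis) of 8 members in each heart, by group (x axis), with the group mean and SD in black. Mrpl51, Mrps31, Mrpl4 and Mrpl38 are low in Veh-TAC hearts alone or mainly there, Mrps15 and Mrpl39 are low in both TAC groups, Mrpl3 is highest in TUDCA-TAC hearts and Mrpl33 is highest in Veh-TAC hearts.

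Other members known for their place or for human disease differed less. Of the stalk that recruits translation factors, Mrpl10 differed by -0.10, Mrpl11 by -0.25 and Mrpl12 by -0.21, none past the threshold (adjusted p = 0.442, 0.387 and 0.369). At the exit of the tunnel, Mrpl23 fell by 0.36 (adjusted p = 0.0387) and Mrpl45, which ties the ribosome to the inner membrane, by 0.73 (adjusted p = 0.0449). Mrpl45 was the dimmest member and was below the detection limit on 1 array, which belonged to the Veh-TAC group. Its Veh-TAC values of 6.63, 5.89 and 6.59 lay below 7.08 to 7.13 in the Veh-Sham hearts. The gene was called in 11 of the 25 settings tried, with differences from -0.86 to -0.21. Mrpl3 and Mrps22, whose human counterparts are mutated in forms of cardiomyopathy, differed by -0.09 and -0.28 (adjusted p = 0.504 and 0.237). A second, dimmer probe of Mrpl3 differed by -0.35 (adjusted p = 0.0529, limma, all named probes adjusted together), so the size of its change was not settled. Of the large subunit proteins with small subunit symbols, Mrps30 fell by 0.39 (adjusted p = 0.0425) and Mrps18a differed by -0.12 (adjusted p = 0.623). The 3 members with the highest mean signal were Mrps24, whose difference of -0.38 did not pass (adjusted p = 0.0845), Mrpl33 and Mrpl28, which fell by 0.43 (adjusted p = 0.0352). Beside Mrpl45 the dimmest were Mrpl15, which fell by 0.63 (adjusted p = 0.0215), and Mrpl39. Mrpl58, which frees the chain from stalled ribosomes, differed by -0.49 (adjusted p = 0.115).

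For 21 members the array carried more than 1 probe. The probes disagreed in direction for 2 of them, Mrpl43 (0.06 and -0.28) and Mrps33 (0.03 and -0.19), in neither of which any probe was called. In 6 members 1 probe was called and another was not. In Mrpl18, Mrpl47 and Mrpl51 the brightest probe was the one called, and in Mrpl37, Mrpl49 and Mrps25 only dimmer probes were called lower. For Mrpl49 the brightest probe differed by -0.21 and the dimmer ones by -0.85, -0.52 and -0.38, and for Mrps25 the values were -0.21 against -0.63 and -0.41. No member had probes called in opposite directions. In the other comparisons the probes disagreed in direction more often. They did so in 5 of the 21 members for TUDCA-TAC against TUDCA-Sham, 7 for TUDCA-TAC against Veh-TAC and 11 for TUDCA-Sham against Veh-Sham. For the difference between the responses to TAC with vehicle and with TUDCA the number was 9.

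Taking the median deviation of the 71 members from the Veh-Sham mean in each heart, the Veh-Sham hearts lay at -0.05, 0.08 and -0.04, and the Veh-TAC hearts at -0.15, -0.45 and -0.22. All Veh-TAC hearts were below all Veh-Sham hearts, but they differed widely, the lowest being replicate 2 at 73.1% of the Veh-Sham level and the highest replicate 1 at 90.3%. Veh-TAC replicate 2 was the lowest of its group in 68 of the 71 members. Without that heart 6 members were called in place of 22. There were 23 calls without Veh-TAC replicate 1 and 13 without Veh-TAC replicate 3. Without Veh-Sham replicate 1, 2 or 3 there were 13, 10 and 14. With median scaling in place of quantile normalization 5 members were called, all of them lower, and the member median was -0.15 while the median over all genes shifted to 0.12.

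Markers of other cells moved with the same contrast. Of 13 macrophage markers 10 were measured and 8 rose in Veh-TAC hearts, and their summed linear signal was 65394 to 78592 against 41181 to 42608 in Veh-Sham hearts. Of 10 fibroblast markers 8 were measured and 5 rose, with sums of 77616 to 94154 against 63448 to 70675. For cardiomyocytes 12 of 13 markers were measured, of which 1 rose and 1 fell, with sums of 441822 to 470657 against 455636 to 488878, which overlap. Markers of skeletal muscle (4 of 8 measured, 2 higher and 1 lower) summed to 76825 to 84073 against 34302 to 44956, those of adipocytes (4 of 7, 1 lower) to 423 to 572 against 930 to 2112, and those of red blood cells (4 of 6, 1 lower) to 37571 to 70525 against 72758 to 73132. The skeletal muscle list included Acta1 (α-skeletal actin), which the authors used as a marker of hypertrophy of the heart. Its sum therefore does not stand for skeletal muscle cells alone. Only 1 of 9 lymphocyte markers was measured. The part of these cells in the lower ribosomal protein signal was not tested.

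Genes that build and use the mitochondrial ribosome were examined as lists, beside the 12.5% of all genes called lower and 12.5% called higher. Of 20 measured assembly factors, 10 fell in Veh-TAC hearts and none rose, with a median difference of -0.42. Rbfa, which matures the small subunit RNA, read 11.98, 12.13 and 11.999 in Veh-Sham and 11.57, 11.38 and 11.40 in Veh-TAC hearts and fell by 0.59 (adjusted p = 0.00116). Eral1, a GTPase that chaperones the same RNA, fell by 0.59 (adjusted p = 0.00408). Among 14 aminoacyl-tRNA synthetases and amidotransferase subunits of mitochondria 6 fell, including the prolyl enzyme Pars2 (by 0.82, adjusted p = 0.00627) and Qrsl1, which makes glutaminyl-tRNA (by 0.43, adjusted p = 0.0101). Of 17 genes of mitochondrial transcription, replication and RNA processing 8 fell, with a median of -0.43, among them Supv3l1, an RNA helicase of mitochondrial RNA decay (by 0.47, adjusted p = 0.00785), and the transcription factor Tfb2m (by 0.47, adjusted p = 0.00855).

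Translation factors had a median of -0.33 but 1 call among 10 genes, the elongation factor Tsfm, which fell by 0.38 (adjusted p = 0.0299). Of the mitochondrial ribosomal proteins with other symbols, Dap3 fell by 0.31 (adjusted p = 0.0186) and Ptcd3 by 0.67 (adjusted p = 0.00361), both of the small subunit, and Chchd1 differed by -0.13 (adjusted p = 0.565). Of 7 regulators of this gene programme 2 fell: Gabpa, the ETS subunit of GABP, by 0.63 (adjusted p = 0.00288) and Esrra, an estrogen-related receptor, by 0.44 (adjusted p = 0.0111). Nrf1 differed by -0.16 and the coactivator Ppargc1a by 0.36, neither past the threshold (adjusted p = 0.324 and 0.306).

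Ribosomal proteins of the cytosol did not share the shift. Over 56 measured genes the median difference was 0.03, with 1 rise and 1 fall. The fall was that of Rpl3l, the form of Rpl3 made in muscle, which read 15.78, 15.58 and 15.71 in Veh-Sham and 14.84, 14.31 and 14.25 in Veh-TAC hearts (by 1.23, adjusted p = 0.000159). The rise was that of Rpl3 itself (0.48, adjusted p = 0.0059). The lists are set beside each other as counts and medians only, and no test of the difference between lists was made.

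**Figure D4:**
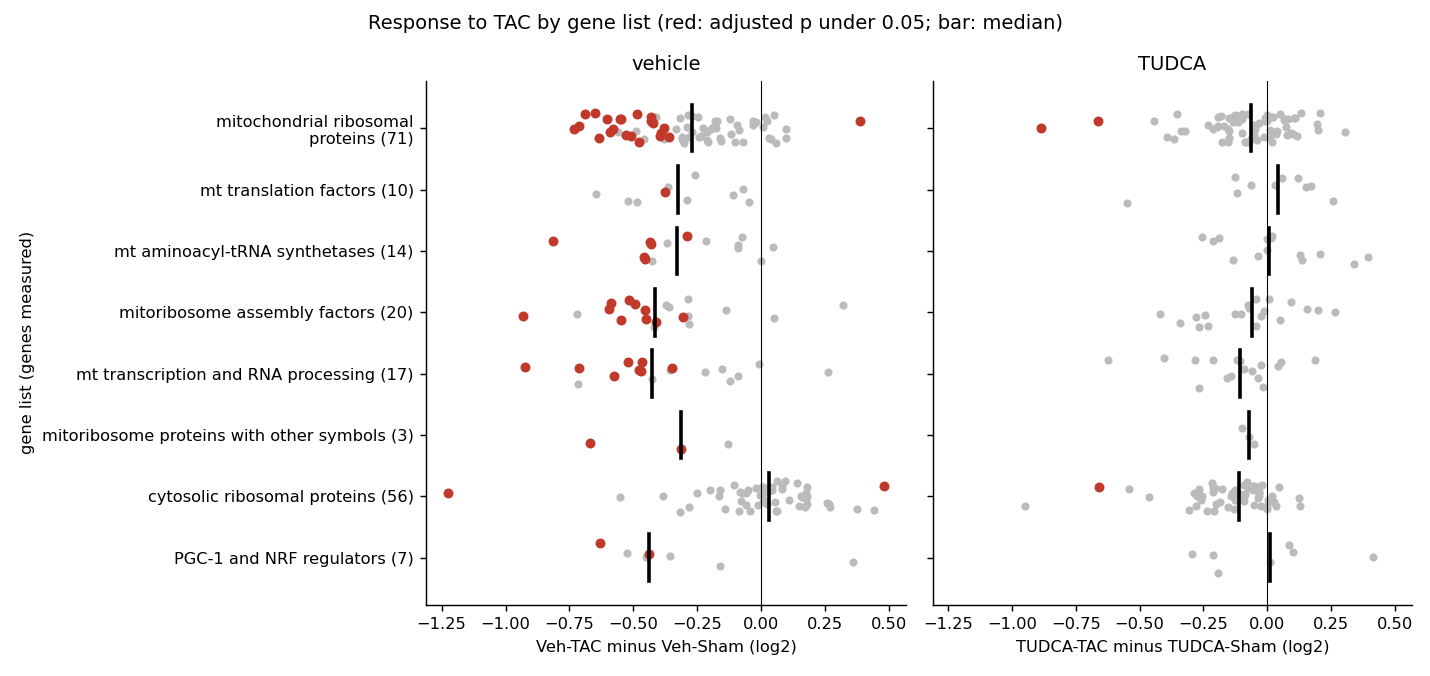
Differences after TAC on the log2 scale (x axis) for single genes (points, red at an adjusted p under 0.05) and their median (black bar) by gene list (y axis), with vehicle on the left and TUDCA on the right; Mrpl58 is shown with the 71 members only. With vehicle the medians of all mitochondrial lists lie at or below -0.27 and that of the cytosolic ribosomal proteins at 0.03, and with TUDCA those of the mitochondrial lists lie closer to 0.

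The comparison of TUDCA-TAC with TUDCA-Sham hearts asked the same under TUDCA. Here 2 members fell (2.82%), against 0.768% of all genes called lower, and 0 rose, against 1.02% called higher (limma; at an unadjusted p under 0.05 there were 5 lower and 1 higher, and the methods' t-test called 0 after Benjamini-Hochberg adjustment). The median difference was -0.06, beside a median at 0 to 2 decimals over all genes, and the fitted difference was negative in 47 members (66.2%, against 50.2% of all genes). The member median was 0.046 without TUDCA-TAC replicates 3 and 4 and 0.00057 with array weights, so that its direction was not settled. All TUDCA-TAC hearts lay below all TUDCA-Sham hearts in 6 members (8.45%), against 8.27% of all genes.

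Mrpl39, a mitochondria-specific protein of the large subunit, read 9.04, 8.78 and 8.38 in TUDCA-Sham hearts and 8.12, 8.05, 7.75 and 7.47 in TUDCA-TAC hearts. It fell by 0.89 (SE 0.17, adjusted p = 0.0262), to 0.541 of the TUDCA-Sham level, and the groups did not overlap. With vehicle the same gene differed by -0.53 (adjusted p = 0.0538). Mrps15, a conserved protein of the small subunit, read 11.15, 10.96 and 10.77 against 10.30, 10.37, 10.19 and 10.33 and fell by 0.66 (SE 0.13, adjusted p = 0.0262), and with vehicle by 0.51 (adjusted p = 0.0185). At an adjusted p under 0.05, 0 members were called without TUDCA-Sham replicate 1, TUDCA-Sham replicate 2 or TUDCA-TAC replicate 3, and 1 without TUDCA-TAC replicate 1. The array background, the median log2 intensity of undetected probes, was 8.25, 8.27 and 8.02 on the TUDCA-Sham arrays. On the TUDCA-TAC arrays it was 8.04, 8.05, 8.08 and 7.37. With this value as a term in the fit 0 members were called. The fitted differences stayed negative in all 26 settings, between -1.06 and -0.47 for Mrpl39 and between -0.76 and -0.54 for Mrps15.

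Mrpl3 had the smallest p in the other direction. Its values of 12.61, 12.60, 12.59 and 12.65 in TUDCA-TAC hearts were above 12.22, 12.38 and 12.33 in TUDCA-Sham hearts, and above all vehicle hearts too, but the difference of 0.31 did not pass (adjusted p = 0.0944). The second probe of Mrpl3 differed by 0.12 only (adjusted p = 0.664, limma, all named probes adjusted together). The next was Mrps34, with 0.21 (adjusted p = 0.321). None of the assembly factors, tRNA synthetases, translation factors or transcription genes was called in either direction with TUDCA, and 1 cytosolic protein, Rps3a1, fell by 0.66 (adjusted p = 0.049).

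Direct comparison of TUDCA-TAC with Veh-TAC hearts uses the same Veh-TAC hearts as the first comparison, so the 2 sets of values are not independent. In it 8 members were higher (11.3%), against 8.17% of all genes called higher, and 0 were lower, against 8.25% called lower (limma; 26 higher and 2 lower at an unadjusted p under 0.05, and 0 in either direction by the methods' t-test after adjustment). The share of members called higher was thus near the background. The median over the members was 0.20, beside 0.01 over all genes.

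Of the members called, Mrpl4 differed most, with 10.92, 10.85, 10.71 and 10.96 in TUDCA-TAC hearts against 10.48, 10.07 and 10.36 in Veh-TAC hearts, a difference of 0.55 (SE 0.11, adjusted p = 0.0075). Mrps31 read 12.90, 12.84, 12.81 and 13.04 against 12.57, 12.29 and 12.48 (0.45, adjusted p = 0.0118), and each of its 3 probes was called. In both genes the TUDCA-TAC hearts overlapped with the sham-operated hearts. Mrpl38 was higher by 0.42 (adjusted p = 0.0152), with 12.99, 12.93, 12.69 and 12.81 in TUDCA-TAC hearts. Mrps35 (0.46, adjusted p = 0.0214), Mrpl42 (0.38, adjusted p = 0.033), Mrps27, an RNA-binding protein of the small subunit (0.44, adjusted p = 0.0387), Mrpl30 (0.42, adjusted p = 0.0396) and Mrpl23 (0.34, adjusted p = 0.0489) made up the rest. Mrps27 read 9.52, 9.49, 9.23 and 9.68 in TUDCA-TAC hearts against 9.07, 8.81 and 9.23 in Veh-TAC hearts, so that the groups met at 9.23, and Mrpl30 read 13.65, 13.64, 13.27 and 13.53, where replicate 3 lay below the highest Veh-TAC heart. For Mrpl42, TUDCA-TAC replicate 3 stood apart at 13.79, below 13.97 to 14.00 in the other 3 hearts. In the lower direction Mrpl33 differed by -0.30 and Mrpl20 by -0.55, without passing (adjusted p = 0.115 and 0.122), and Mrpl20 ranged from 11.18 to 12.41 among the TUDCA-TAC hearts.

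The arrays of these groups differed in background. The median log2 intensity of undetected probes was 8.25 to 8.28 on the Veh-TAC arrays, 8.04 to 8.08 on TUDCA-TAC replicates 1 to 3 and 7.37 on replicate 4, and with this value as a term in the fit 0 members were called higher or lower between these groups. Without Veh-TAC replicate 2 there was 1 call, Mrpl4. There were 13 calls without Veh-TAC replicate 1, 4 without TUDCA-TAC replicate 2, and 5 without Veh-Sham replicate 1, Veh-TAC replicate 3, TUDCA-Sham replicate 1 or 3, or TUDCA-TAC replicate 1.

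The other gene lists were set beside the 8.17% of all genes called higher in TUDCA-TAC than in Veh-TAC hearts and the 8.25% called lower. Higher were 7 of 20 assembly factors, 4 of 14 tRNA synthetase genes and 5 of 17 transcription genes. Of 10 translation factors 1 was higher (Tufm, by 0.56, adjusted p = 0.0335), and no gene of these lists was lower. Eral1 was higher by 0.47 (adjusted p = 0.0166), Tfb2m by 0.51 (adjusted p = 0.00793) and Gabpa by 0.43 (adjusted p = 0.024). Of 56 cytosolic ribosomal proteins 7 were lower and 1 was higher, with a median difference of -0.12. The 1 higher was Rpl3l (by 1.00, adjusted p = 0.00154), which had fallen after TAC with vehicle.

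Markers of other cells differed between these groups too. Of the measured macrophage and fibroblast markers 5 of 10 and 4 of 8 were lower in TUDCA-TAC hearts, with macrophage sums of 44923 to 47253 and fibroblast sums of 64752 to 70443. The cardiomyocyte sum ranged from 447531 to 503659, and that of smooth muscle and pericyte markers (7 of 8 measured, 1 higher) from 45377 to 53772 against 35562 to 46271 in Veh-TAC hearts. Of 4 genes of the skeletal muscle list, which included the hypertrophy marker Acta1, 2 were higher and 1 was lower, with sums of 44382 to 84925 against 76825 to 84073. Of 4 adipocyte markers none was called, with sums of 593 to 1727 against 423 to 572. The part of these cells in the higher ribosomal protein signal was not tested.

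Whether the response to TAC itself differed between vehicle and TUDCA was tested as the difference between both responses. No member passed (0 higher and 0 lower by limma, against 0.852% and 1.28% of all genes, with 12 higher and 0 lower at an unadjusted p under 0.05). The median difference was 0.25, beside 0.01 over all genes, and the fitted difference was positive in 55 members (77.5%), against 51.5% of all genes. The members nearest to the threshold were Mrpl4, with 0.60 (SE 0.16, adjusted p = 0.073), and Mrps31, with 0.49 (SE 0.14, adjusted p = 0.0957). In the other direction Mrps6 (-0.28, adjusted p = 0.336) and Mrpl33 (-0.30, adjusted p = 0.376) came first. With array weights 9 members were called higher. The calls made with vehicle and not with TUDCA therefore do not by themselves show a different response.

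Over the 71 members, the 2 responses, which share no hearts, had the same direction in 47 (66.2%), against 66.3% of all genes, and the response with TUDCA was the smaller in 51 (71.8%), against 67.7%. The correlation of both responses across members was 0.38 (Pearson, 71 genes measured in the same 13 hearts) and across all genes 0.56.

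**Figure D5:**
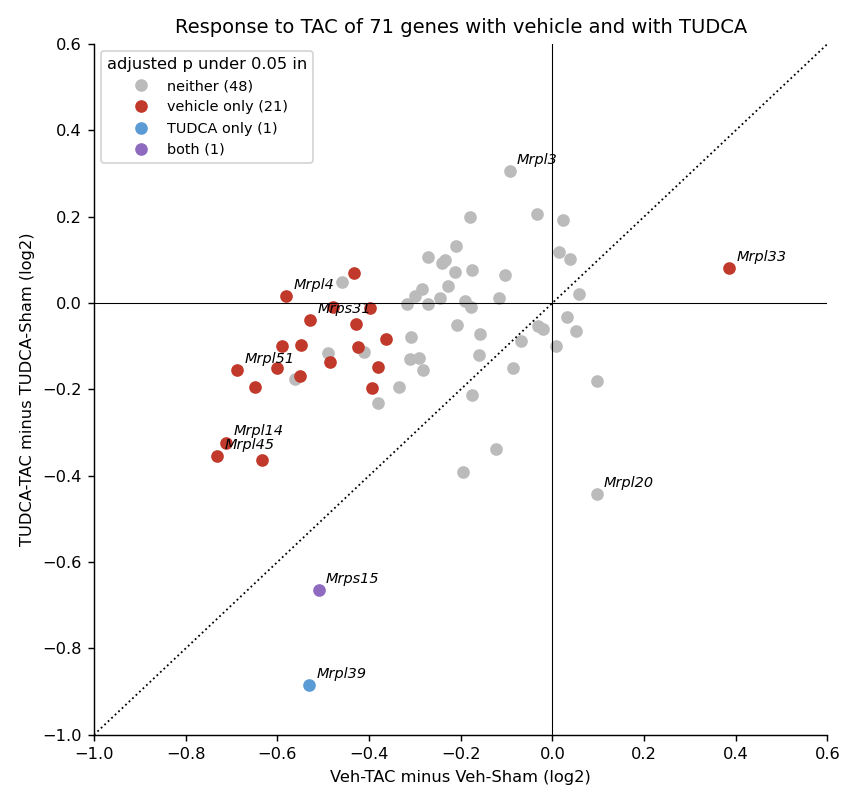
Difference after TAC on the log2 scale with TUDCA (y axis) against that with vehicle (x axis) for the 71 members, coloured by the comparison in which the adjusted p was under 0.05; the dotted line marks equal responses. Most points lie left of 0 and above the dotted line, with Mrps15 and Mrpl39 lowest and Mrpl33 far to the right.

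In the hearts themselves the TUDCA-TAC group was split. The median deviation of the members from the Veh-Sham mean was 0.04 and -0.01 in replicates 1 and 2 and -0.22 and -0.19 in replicates 3 and 4. The latter overlap with the Veh-TAC hearts, which began at -0.15. The lowest TUDCA-TAC value of a member came from replicate 3 in 37 members and from replicate 4 in 30. The array of replicate 4 stood apart in its raw intensities. Its 90th percentile was 19.3 times its 25th, against 6.49 to 8.52 times on the other arrays, and its background was the lowest (7.37). The part of this array in the split was not tested. The group means were -0.10 ± 0.13 (SD, n = 4) for TUDCA-TAC, -0.27 ± 0.16 (SD, n = 3) for Veh-TAC and -0.003 ± 0.069 (SD, n = 3) for Veh-Sham. When replicates 3 and 4, the lower hearts of the group, were left out, the median difference between the responses was 0.37, a rise that the choice of these hearts fixed.

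TUDCA without constriction was examined by comparing TUDCA-Sham with Veh-Sham hearts. No member was called (0 higher and 0 lower by limma, as for all genes, where 0% were called higher and 0% lower; 1 higher and 0 lower at an unadjusted p under 0.05, and 0 by the methods' t-test after adjustment). The median was -0.04, beside a median at 0 to 2 decimals over all genes, and the members ranged from -0.21 to 0.25. The median was 0.0016 without TUDCA-Sham replicate 1 and 0.007 with median scaling. Mrps6 of the small subunit had the smallest p (0.25, unadjusted p = 0.0386), with 12.15, 12.27 and 12.14 in TUDCA-Sham against 11.80, 12.09 and 11.91 in Veh-Sham hearts, and the next in that direction was Mrpl9 (0.12, unadjusted p = 0.4). In the lower direction Mrpl3 (-0.18, unadjusted p = 0.0785) and Mrpl51 (-0.19, unadjusted p = 0.156) came first. The fitted difference was negative in 49 members (69%), against 49.6% of all genes. By the median deviation of the members, the TUDCA-Sham group lay at -0.037 ± 0.076 (SD, n = 3) and the Veh-Sham group at -0.003 ± 0.069 (SD, n = 3). The single TUDCA-Sham hearts lay at -0.12, 0.02 and -0.004. Replicate 1 thus came near Veh-TAC replicate 1, which lay at -0.15.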

How the data were processed

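Total RNA of 13 hearts was hybridised to Illumina MouseRef-8 v2 bead arrays, 1 array a heart. The authors deposited a table of mean bead intensity per probe, neither background subtracted nor normalized, with a detection p-value per probe and array from the deposited table, extracted with GenomeStudio. The authors' second table held log2 values of 11732 probes, which matched quantile-normalized log2 raw intensities to a median difference of 0.00042. Gene symbols came from the platform annotation. Depth has no meaning for arrays, and the number of hearts limits the precision.

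From the intensities, background was removed with normexp (offset 16), followed by quantile normalization and log2 (limma 3.58.1, R 4.3.3). A probe entered the tests if 3 or more arrays detected it (p-value under 0.05), and of the named probes of a gene the one with the highest mean was used. All 13 arrays entered 1 linear model of the 4 groups with eBayes, and p-values were adjusted by Benjamini-Hochberg over 8336 genes. The script was tested on simulated data. Marker sums are linear sums of the normalized signals. Groups and replicate numbers came from the labels, which name separate animals, and the alternatives tried numbered up to 26 settings a comparison, the reported one included.

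The members, gene lists and tests were chosen with earlier results of these data known. Named were the members called with the smallest p in each comparison, the brightest and dimmest, those with disagreeing probes, those linked to cardiomyopathy in humans, those of the stalk and exit tunnel, those placed in the other subunit, and the leading genes of each list. Mrps11, Mrpl46, Cyb5rl and Twnk were named for their position, and Mrpl14, Mrpl30, Mrps21 and Gabpa, Tfb2m, Eral1 and Tufm between the TAC groups were named after their values were seen.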

Additional observations from a re-analysis of the deposited data

Results flagged for a closer look

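Each of the 71 members was screened for a single heart far from the other 3 in the TUDCA-TAC group, the one group with more than 3 hearts, by the gap to the nearest heart over the range of the group (Dixon's test). By chance about 1 group in 20 would stand out, and 3 of the 71 members did, which is no more than that share. In all of them TUDCA-TAC replicate 3 was low. The members were measured in the same hearts, and replicate 3 was the lowest of its group in 37 of them. Mrpl42 read 13.79 in that heart against 13.97 to 14.00 in the others, Mrps21 read 12.65 against 12.94 to 12.98, and Mrps25 read 9.40 against 9.54 to 9.57.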

How the results depend on the processing

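The member medians of the vehicle response to TAC, of the contrast between both TAC groups and of the difference between the responses kept their direction in the settings tried. That of TUDCA-TAC against TUDCA-Sham turned to 0.046 without TUDCA-TAC hearts 3 and 4 and to 0.00057 with array weights, and that of TUDCA-Sham against Veh-Sham to 0.007 with median scaling and 0.0016 without TUDCA-Sham replicate 1. The 22 members called between Veh-TAC and Veh-Sham numbered 5 with median scaling (all 5 among the 22) and 5 by the methods' t-test (4 among the 22), and 6 to 24 when single hearts were left out; with median scaling the member median was -0.15. The 2 calls between TUDCA-TAC and TUDCA-Sham became 1 with median scaling, 0 with only the groups compared, 0 with array background as a term, 0 without TUDCA-TAC hearts 3 and 4, 0 by the methods' t-test, and 0 to 2 with single hearts left out. The 8 calls between TUDCA-TAC and Veh-TAC became 1 with median scaling, 14 without background removal, 15 on the authors' normalized table, 29 with array weights, 1 with only the groups compared, 0 with array background as a term, 0 by the methods' t-test, and 1 to 13 with single hearts left out. For the difference between the responses, 0 calls became 3 without background removal, 3 on the authors' table, 9 with array weights, and 0 to 1 with single hearts left out, and the median was 0.37 without TUDCA-TAC hearts 3 and 4, which were chosen as the lower hearts. The cause of these shifts was not tested.

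The replicate numbers name different animals. Deviations from the group means correlated from -0.38 to 0.44 (median 0.004) over 18 pairs of same-numbered hearts of different groups. Over 45 pairs with different numbers they correlated from -0.52 to 0.41 (median -0.03), a similar range. With the replicate number as a block the calls numbered 20, 2 and 4 in the first 3 comparisons.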
